A study of Rattus norvegicus with 8 samples.

Results

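Immediate early genes were read here as 10 genes of the AP-1 and stress response, Fos, Fosb, Jun, Junb, Jund, Egr1, Atf3, Ier3, Dusp1 and Myc, in the small intestinal epithelium of rats given different drinking water. They were taken by name: every probe set (a group of short probes on the array that reads 1 transcript) whose annotation gives 1 of these symbols was kept, which gave 16 of the 31099 probe sets and 10 of the 14217 genes on the array. All samples were epithelial cells of female Wistar rats, labelled as 4 months old, measured on Affymetrix Rat Genome 230 2.0 arrays. The WR group had its water restricted for 12 h by the labels, while the study's methods also speak of a longer restriction beside microarray data. The DSW1200 group drank deep-sea water with a hardness of 1200 ppm for 3 days, the SeW group drank selenium water for 3 days, and the TW group, the control, drank tap water for 3 days. Each group had 2 arrays. The sources do not say whether the arrays of a group came from separate rats, so the p-values measure only the spread between arrays, which may be technical. With 2 arrays against 2, an exact permutation test cannot give a two-sided p below 0.333, so single values were tested only within the linear model over all genes. In all groups the cells had been shaken off short pieces of proximal intestine after a warm incubation with EDTA, a calcium chelator. No sample without this step was analysed here, so a level set by the handling and a level present in the animal cannot be told apart.

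Immediate early genes are switched on within minutes of a stimulus, without new protein being made first, and their mRNAs decay quickly. Growth factors, cell stress, injury and the loss of cell contact act through the MAP kinases ERK, JNK and p38, which phosphorylate factors already bound at these genes, such as serum response factor and its partners at CArG boxes and CREB or ATF proteins at cyclic AMP response elements. The Fos and Jun proteins then pair through leucine zippers into AP-1, and the same cascade induces its own brakes, among them the MAP kinase phosphatase Dusp1. In intestinal epithelium these genes are known for their part in crypt cell growth and in repair after injury, and separating epithelial cells from tissue is a known trigger of them.

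The promoters of Jund, Egr1 and Dusp1 are shown because Jund was the only one of these genes called different between groups and because Egr1, Dusp1 and Jund shared the same brighter array in every group, as described further on. RefSeq promoters (assembly GRCr8, 250 bases before to 50 bases after the start of the gene) were found for 5 of the 10 genes, Fosb, Junb, Jund, Egr1 and Dusp1. Those of Jund (chr16:18769722-18770021, minus strand), Egr1 (chr18:26736828-26737127, plus strand) and Dusp1 (chr10:17184603-17184902, plus strand) read 5′ to 3′ as follows, with motif matches in capitals.
Jund: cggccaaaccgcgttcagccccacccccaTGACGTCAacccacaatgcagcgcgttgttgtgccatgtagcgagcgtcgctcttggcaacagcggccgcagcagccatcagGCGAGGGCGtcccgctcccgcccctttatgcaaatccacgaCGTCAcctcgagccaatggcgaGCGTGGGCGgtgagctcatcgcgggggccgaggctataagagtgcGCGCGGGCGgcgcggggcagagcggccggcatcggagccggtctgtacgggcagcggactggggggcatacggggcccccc
Egr1: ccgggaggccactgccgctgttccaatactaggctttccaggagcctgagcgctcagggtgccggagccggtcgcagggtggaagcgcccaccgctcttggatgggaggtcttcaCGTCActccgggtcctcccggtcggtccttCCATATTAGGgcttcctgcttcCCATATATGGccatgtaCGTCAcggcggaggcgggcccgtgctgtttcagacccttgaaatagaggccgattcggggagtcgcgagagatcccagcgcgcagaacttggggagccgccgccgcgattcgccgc
Dusp1: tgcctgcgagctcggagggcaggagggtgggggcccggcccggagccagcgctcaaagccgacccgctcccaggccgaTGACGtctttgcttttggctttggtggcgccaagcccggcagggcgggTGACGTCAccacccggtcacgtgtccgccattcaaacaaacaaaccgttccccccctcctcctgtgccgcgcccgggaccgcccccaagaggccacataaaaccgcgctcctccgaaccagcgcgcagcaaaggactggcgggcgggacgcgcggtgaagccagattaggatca

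The motifs searched on both strands were the AP-1 site TGACTCA, the related TGACATCA, the cyclic AMP response element TGACGTCA, its shorter core TGACG, which lies inside the full element, the EGR site GCGNGGGCG, the TATA box TATAAA and the CArG box bound by serum response factor. The Jund promoter held TGACGTCA at -221 to -214 from the start, a separate TGACG on the minus strand at -98 to -94, and the EGR site at 3 places that begin at -139, -76 and -31. The Egr1 promoter held 2 CArG boxes, at -105 to -96 and at -83 to -74, and TGACG on the minus strand at -135 to -131 and at -66 to -62. The Dusp1 promoter held TGACGTCA at -124 to -117 and TGACG at -172 to -168. Junb had TATAAA from -49 and TGACG from -155, and Fosb had a TATA match on the minus strand from -180. No TGACTCA or TGACATCA lay in any of these 5 windows. Among 33469 RefSeq rat promoters of the same length, TGACGTCA was found in 1.83%, TGACG in 21.2%, the CArG box in 1.64%, the EGR site in 4.98%, TATAAA in 14.2%, TGACTCA in 4.63% and TGACATCA in 4.34%. A match is a description of letters, not a bound site.

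Levels are given as signal in arbitrary units after all arrays were put on 1 common distribution (quantile normalization), and changes as differences of mean log2 signal. The arrays were unequal before that step. The median signal of all probe sets was 9.0 and 8.0 on the WR arrays, 6.1 and 7.0 on the DSW1200 arrays, and 11.1 and 10.6 on the SeW arrays, against 8.4 and 4.3 on the TW arrays, and as deposited the median tested gene was 0.38 higher on the log2 scale in WR than in TW, 0.054 higher in DSW1200 and 0.92 higher in SeW. After normalization these medians were -0.011, -0.021 and -0.042. The ratio of the 3′ to the 5′ control probes of beta-actin, which is larger where the RNA or its copy is shorter, was 21.1 and 24.8 in WR, then 32.8 and 27.1 in DSW1200 and 13.6 and 10.9 in SeW, against 24.1 and 20.6 in TW. Enterocyte markers were bright on every array, with a summed signal of 37930 to 48530, and markers of other cell types were read too. Each sum, here and below, takes every listed marker on the array, also those too dim to test. The Paneth cell markers summed to 710.1 to 2248 (Defa24 and Reg3g were bright, while Defa5 and Mmp7 stayed under 4). The myeloid markers summed to 2219 to 3318, most of it from Cd74 (1544 to 2541) and Lyz2 (258 to 531). Lyz2 was also counted as a Paneth marker. Csf1r stayed at 15.9 to 49.5, and S100a8 and Itgam stayed under 4. Fewer cells of a type and less RNA per cell cannot be told apart in such bulk samples.

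A gene was tested where its brightest probe set averaged more than 6.69, which is the median level over the whole array. Of the 10 genes 9 passed, among 9258 genes tested, and Myc was too dim. A call is an adjusted p under 0.05 after Benjamini-Hochberg adjustment over all tested genes in limma. By this rule 1 of the 9 genes was called in 1 of the comparisons with TW: Jund was lower in SeW. The lowest signal on any array was 3.5 for Fosb and 35.0 or more for the other tested genes, and the differences between the 2 arrays of a group were often as large as those between groups, as the plot of the levels on each array shows.

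**Figure D1:**
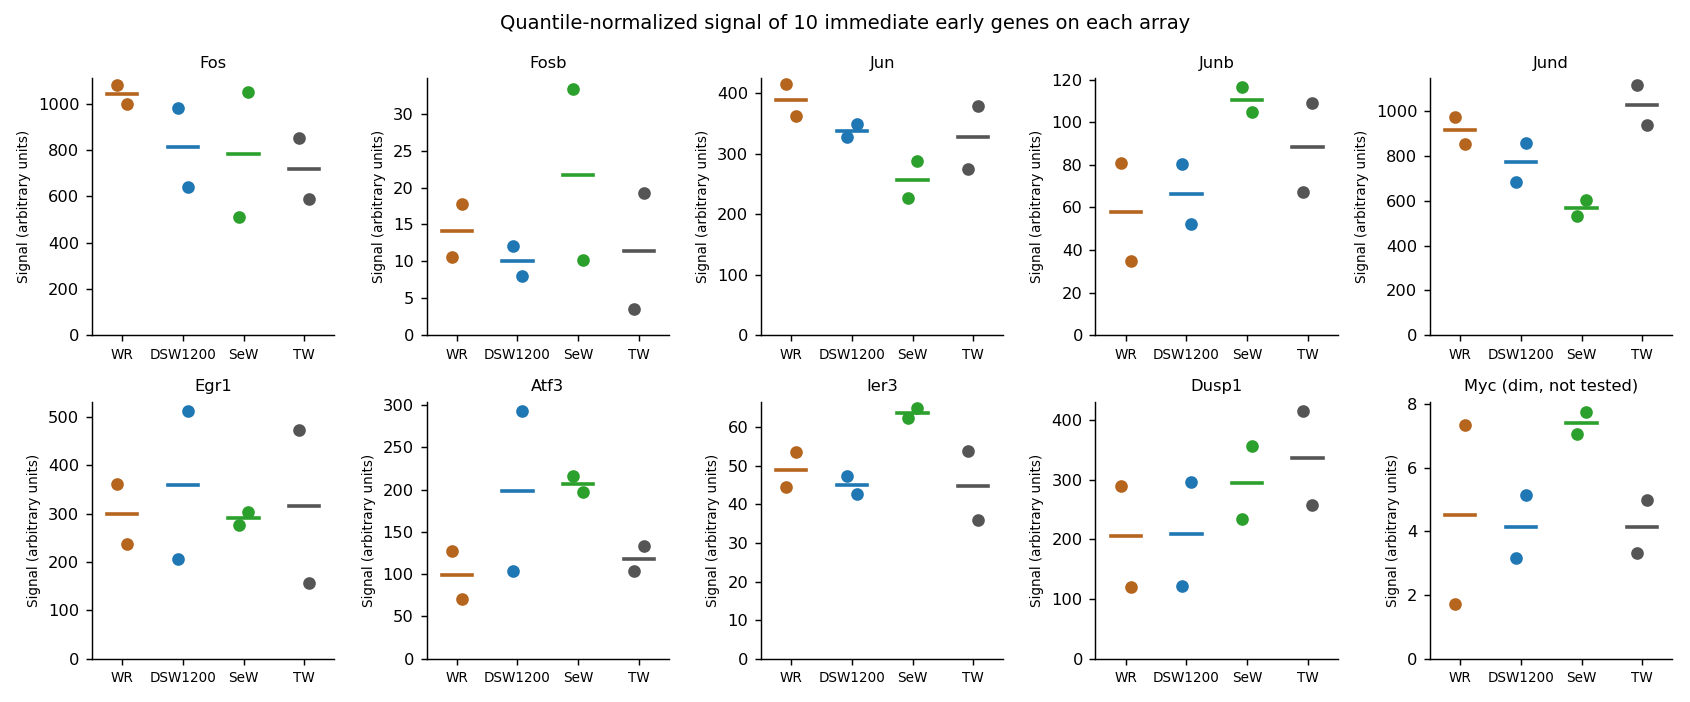
Signal after quantile normalization (vertical axes, arbitrary units, each from 0) of the 10 genes on the 8 arrays: points are arrays, bars are means of the 2 arrays of WR, DSW1200, SeW and TW. The SeW arrays of Jund, at 531 and 603, lie below all others, while the Egr1 arrays of TW, at 473 and 157, enclose those of WR and SeW.

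Fos encodes c-Fos, the AP-1 subunit that cannot pair with itself and needs a Jun partner. Its signal was 1081 and 999 on the WR arrays, 980.3 and 642 on the DSW1200 arrays, and 512 and 1053 on the SeW arrays, against 851 and 589 on the TW arrays. Both WR arrays lay above both TW arrays and above both DSW1200 arrays, and the SeW arrays reached from the lowest level of all to the second highest. WR averaged 1040.1 ± 57.8 and TW 719.9 ± 186 (SD, n = 2 each), a log2 difference of 0.55 (SE 0.33, 95% interval -0.17 to 1.28, limma adjusted p = 0.586) that did not pass. The differences from TW were 0.16 in DSW1200 (adjusted p = 0.892) and 0.053 in SeW (adjusted p = 0.948). The other Fos probe set stayed between 0.713 and 7.62 on all arrays.

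Fosb encodes FosB, the Fos relative whose shortened form accumulates with repeated stimulation. It was the dimmest of the tested genes, with a signal of 10.6 and 17.7 on the WR arrays, 12.1 and 7.96 on the DSW1200 arrays, and 33.3 and 10.2 on the SeW arrays, against 3.5 and 19.3 on the TW arrays. The 2 TW arrays alone spanned a ratio of 5.51, and no group stood apart from another. SeW gave the only mean difference from TW above 2-fold among the 9 genes, 1.17 on the log2 scale, with an interval of -0.63 to 2.96 (SE 0.80, adjusted p = 0.459). It rested on the TW array at 3.5 and on the SeW array at 33.3. The value of 3.5 is under the level required of a gene's mean for testing, and with an offset of 32 before log2 the difference was 0.30. It was -0.063 without that TW array and 0.30 without that SeW array.

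Jun encodes c-Jun, a strong activator among the Jun proteins and a direct target of JNK. The probe set with the highest mean level, 1369788_s_at, gave 415 and 363 on the WR arrays, 327 and 349 on the DSW1200 arrays, and 226 and 287 on the SeW arrays, against 274 and 379.8 on the TW arrays. SeW overlapped TW on this probe set and lay below both WR and both DSW1200 arrays. The log2 differences from TW were 0.27 in WR (adjusted p = 0.674), 0.066 in DSW1200 (adjusted p = 0.927) and -0.34 in SeW (SE 0.20, adjusted p = 0.385), the last of which was 0.63 as deposited.

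The other 2 probe sets of Jun did not follow it. Probe set 1389528_s_at gave 376 and 239 in WR, then 237 and 361 in DSW1200 and 396 and 422 in SeW, against 261 and 185 in TW, and 1374404_at gave 37.4 and 27.1 in WR, then 36.4 and 44.5 in DSW1200 and 59.2 and 70.6 in SeW, against 24.9 and 54.4 in TW. On both of these the 2 SeW arrays were above every other array. With each of 11959 probe sets tested as a feature of its own, SeW differed from TW by 0.90 on 1389528_s_at (SE 0.27, adjusted p = 0.118), 0.81 on 1374404_at (SE 0.35, adjusted p = 0.244) and -0.34 on 1369788_s_at (adjusted p = 0.394). None passed, and the direction of Jun in SeW depended on the probe set read. The suffix _s_at marks probe sets whose probes match more than 1 transcript.

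**Figure D2:**
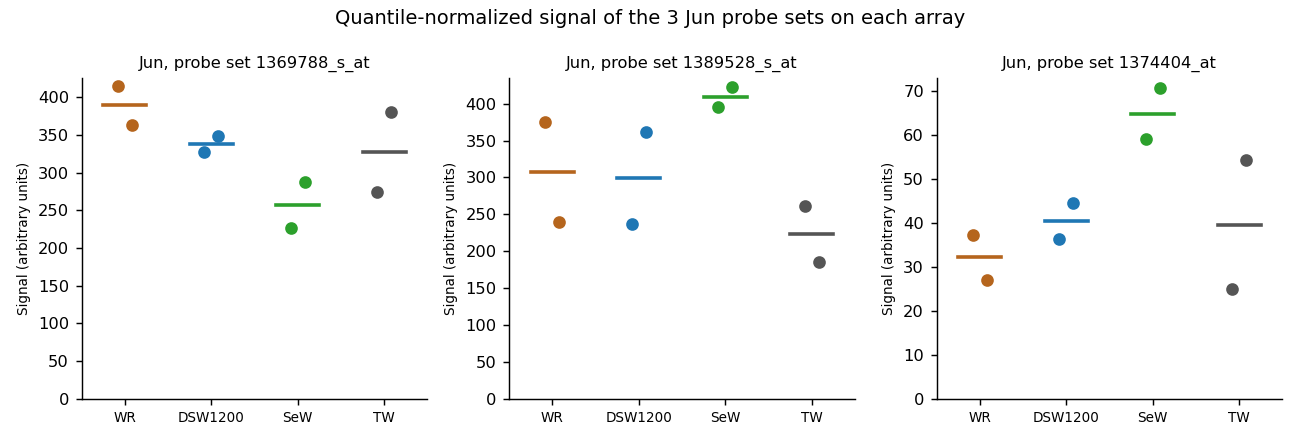
Signal (vertical axes, arbitrary units after quantile normalization, each from 0) of the 3 Jun probe sets on the 8 arrays, with bars at the means of WR, DSW1200, SeW and TW. The SeW arrays are lower than the WR and DSW1200 arrays on 1369788_s_at, at 226 and 287, and higher than all other arrays on 1389528_s_at, at 396 and 422, and on 1374404_at, at 59.2 and 70.6.

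Junb encodes JunB, which can damp c-Jun and is often induced with Fos. Its signal was 80.7 and 35.0 on the WR arrays, 80.5 and 51.9 on the DSW1200 arrays, and 116 and 105 on the SeW arrays, against 67.1 and 109 on the TW arrays. The SeW arrays lay above the WR and DSW1200 arrays and on either side of the brighter TW array. Against TW the log2 differences were -0.69 in WR (SE 0.39, adjusted p = 0.574), -0.40 in DSW1200 (adjusted p = 0.755) and 0.37 in SeW (adjusted p = 0.650). SeW exceeded WR by 1.06 (interval 0.19 to 1.93, adjusted p = 0.214) and DSW1200 by 0.77 (adjusted p = 0.306), differences that did not pass.

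Jund encodes JunD, the Jun protein that many resting cells already hold and that is less dependent on stimulation. Its brightest probe set gave 975 and 856 on the WR arrays, 686 and 858 on the DSW1200 arrays, and 531 and 603 on the SeW arrays, against 1118 and 937 on the TW arrays. The SeW arrays were below the other 6 arrays, and the DSW1200 arrays were below both TW arrays. In SeW Jund averaged 567 ± 50.8, against 1028 ± 128 in TW (SD, n = 2 each), and fell by 0.85 on the log2 scale (SE 0.17, 95% interval -1.23 to -0.48, limma adjusted p = 0.0397). The difference from TW was -0.42 in DSW1200 (interval -0.79 to -0.038, unadjusted p = 0.0342, adjusted p = 0.617) and -0.16 in WR (adjusted p = 0.760). SeW was also 0.69 lower than WR (log2 difference -0.69, adjusted p = 0.0925) and 0.44 lower than DSW1200 (log2 difference -0.44, adjusted p = 0.188), which did not pass, and the test among all 4 groups gave an adjusted p of 0.0963.

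The call on Jund depended on how the arrays were scaled. As deposited, Jund read 951 and 799 in WR, then 499.5 and 767 in DSW1200 and 779 and 917 in SeW, against 972 and 634 in TW, so that SeW exceeded TW by 0.11 (adjusted p = 0.733) on arrays whose median tested gene was 0.92 higher. With each array scaled to the same median it was 566 and 698 in SeW, against 933 and 1188 in TW, a difference of -0.75 that did not pass (adjusted p = 0.264). Under quantile normalization the call was also lost when either SeW array, either TW array or either WR array was left out, with adjusted p between 0.0557 and 0.210 and differences of -0.98 to -0.73. It was kept when either DSW1200 array was left out. The beta-actin ratio was lowest on the SeW arrays, and with it as a covariate the difference was -1.26 (SE 0.42, adjusted p = 0.507). All 7 tested markers of intraepithelial lymphocytes were lower on average in SeW than in TW, with none called, and their summed signal was 299 and 291 in SeW against 479 and 365 in TW, with the defining Cd3e and Cd8a too dim to test. All 7 tested myeloid markers were lower too (summed signal, mostly Cd74, 2582 and 2632 in SeW against 2946 and 2748 in TW, no call), and 7 of 10 enterocyte markers were higher (47402 and 48530 in SeW against 42720 and 43842 in TW, with Si, sucrase-isomaltase, called). All 6 tested crypt proliferation markers were higher in SeW (summed signal of all listed ones 702 and 532 against 583 and 424 in TW, no call), as were 9 of 10 fibroblast and smooth muscle markers (313 and 355 against 372 and 201 in TW, no call) and 2 of 3 tested Paneth markers (1251 and 1669.8 against 832 and 922 in TW, with Defa24 called). All 4 tested endothelial and blood markers were lower (summed signal of all listed ones 69.5 and 100.2 against 122 and 91.2 in TW, no call). Lower on average too were 5 of 7 enteroendocrine markers (1286 and 1039 against 1339 and 1450 in TW, no call). So were 5 of 7 goblet markers (13245 and 9441 against 12385 and 13003 in TW, no call) and 3 of 4 pancreatic acinar markers (78.9 and 61.2 against 157 and 40.4 in TW, no call). The part of these markers in the Jund difference was not tested. The other 2 Jund probe sets stayed between 0.338 and 9.61.

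**Figure D3:**
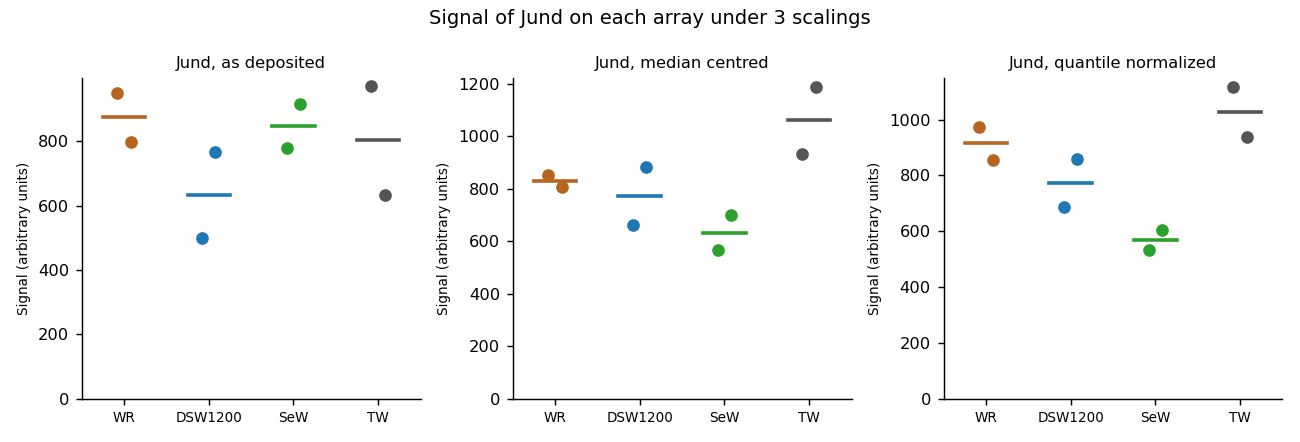
Jund signal on the 8 arrays (vertical axes, arbitrary units, each from 0) as deposited, with arrays scaled to 1 median, and after quantile normalization, with bars at the means of WR, DSW1200, SeW and TW. SeW reads 779 and 917 as deposited, within the TW arrays at 972 and 634, and 531 and 603 after quantile normalization, below TW at 1118 and 937.

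Atf3 encodes a stress-induced zipper protein that pairs with Jun and represses many targets. Its signal was 127 and 71.1 on the WR arrays, 104 and 292 on the DSW1200 arrays, and 217 and 197 on the SeW arrays, against 103 and 134 on the TW arrays. Both SeW arrays were above both TW and both WR arrays, and 1 DSW1200 array was above all others while its partner was at the TW level. The log2 difference from TW was 0.81 in SeW (SE 0.43, interval -0.14 to 1.77, adjusted p = 0.329), 0.57 in DSW1200 (adjusted p = 0.691) and -0.30 in WR (adjusted p = 0.837). SeW exceeded WR by 1.12 (interval 0.16 to 2.07, adjusted p = 0.230), the largest fitted difference of the 9 genes between those groups, and did not pass.

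Egr1 encodes a zinc finger factor induced through serum response factor. Its signal was 362 and 236 on the WR arrays, 206 and 512 on the DSW1200 arrays, and 277 and 303 on the SeW arrays, against 473 and 157 on the TW arrays. The groups overlapped in every comparison, and the brightest and dimmest TW arrays enclosed all WR and SeW arrays. The log2 differences from TW were 0.099 in WR, 0.25 in DSW1200 and 0.086 in SeW, with intervals that reached from -1.05 to 1.39 over the 3 (adjusted p from 0.892 to 0.967).

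Dusp1 encodes the phosphatase that switches off p38, JNK and ERK. Its brighter probe set gave 289.6 and 120.3 on the WR arrays, 122 and 297 on the DSW1200 arrays, and 234 and 355 on the SeW arrays, against 415 and 257 on the TW arrays. The brighter WR and DSW1200 arrays reached into the TW range, and no group stood apart. The differences were -0.81 in WR (SE 0.48, adjusted p = 0.588), -0.78 in DSW1200 (adjusted p = 0.660) and -0.18 in SeW (adjusted p = 0.876), the last of which was 0.80 as deposited. The other Dusp1 probe set was dim, at 3.11 and 0.325 in WR, then 4.34 and 7.03 in DSW1200 and 10.04 and 10.6 in SeW, against 6.61 and 4.34 in TW.

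Ier3 encodes a small stress-induced protein that prolongs ERK signalling and affects cell survival. Its signal was 44.5 and 53.6 on the WR arrays, 47.3 and 42.8 on the DSW1200 arrays, and 62.5 and 65.1 on the SeW arrays, against 53.9 and 35.9 on the TW arrays. The 2 SeW arrays were close together and above the other 6. SeW averaged 63.8 ± 1.83, against 44.9 ± 12.7 in TW (SD, n = 2 each), a log2 difference of 0.54 (SE 0.24, interval -0.0065 to 1.08, adjusted p = 0.260). The differences were 0.15 in WR (adjusted p = 0.856) and 0.033 in DSW1200 (adjusted p = 0.971).

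Myc encodes the transcription factor c-Myc, which follows the first wave of early genes in dividing crypt cells. Its single probe set gave 1.71 and 7.34 on the WR arrays, 3.18 and 5.13 on the DSW1200 arrays, and 7.04 and 7.75 on the SeW arrays, against 3.31 and 4.98 on the TW arrays. These levels lay around or under the median of all probe sets, and Myc was tested only when no filter was set, where it was not called in any comparison.

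**Figure D4:**
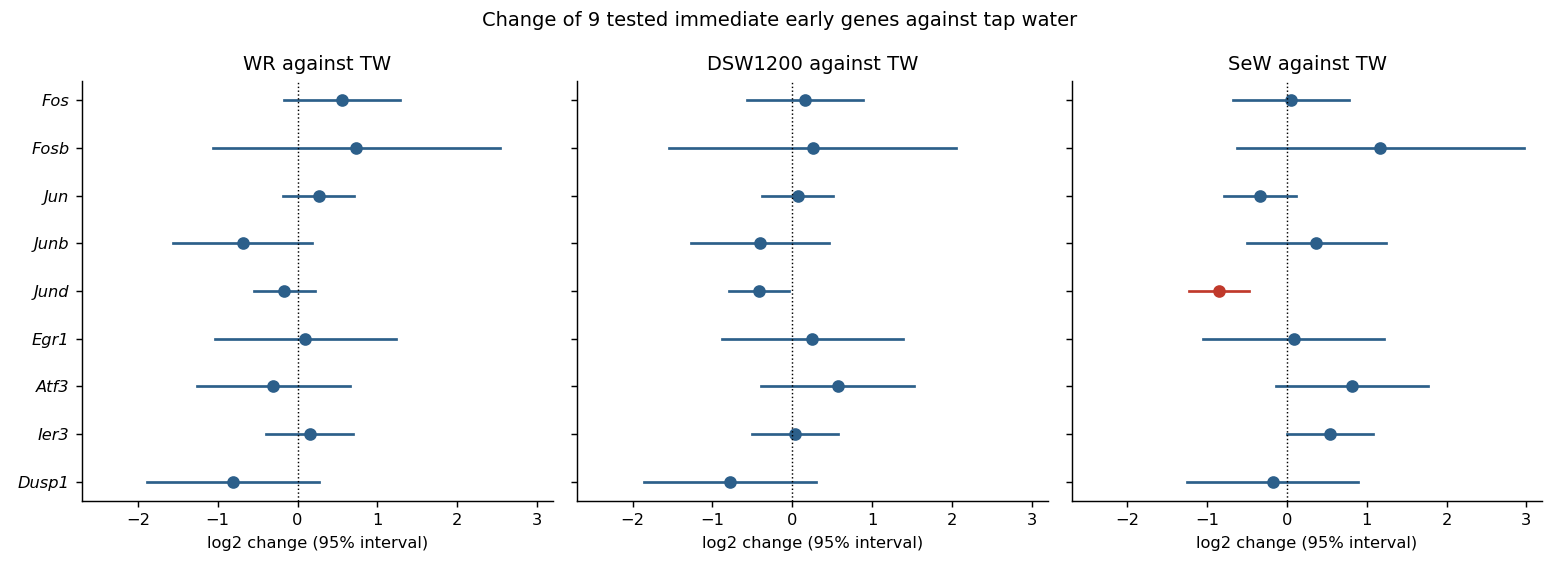
Log2 difference of each tested gene from TW (horizontal axis) in WR, DSW1200 and SeW, with points at the fitted difference and lines over the 95% interval from limma. The red point marks Jund in SeW at -0.85, the only call, and the intervals of Fosb, Egr1 and Dusp1 are the widest.

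Counted over the 9 tested genes, WR had 5 higher and 4 lower than TW on average, with a median difference of 0.099, against -0.011 over all genes. None was called in limma and none had an unadjusted p under 0.05, where 0.0108% of all genes were called and 9.7% had such a p. None passed a 2-fold difference between means, against 4.8% of all genes. Fos was the only gene whose WR arrays both lay above TW, a pattern found in 18.4% of all genes, and none lay below, against 21.3%. In DSW1200, 6 were higher and 3 lower, with a median of 0.066, against -0.021 over all genes. None was called, as for 0% of all genes, and Jund had the only unadjusted p under 0.05 (7.92% of all genes). Its arrays were also the only ones wholly below TW, against 19.2% of all genes, and no gene lay wholly above (16.6%) or passed 2-fold (4.26%). The 2 TW arrays were unlike, and the shares of calls over all genes changed when TW array 1 was left out, which left TW array 2 alone. TW array 2 had the lowest median signal as deposited, 4.3, and stood apart from the other arrays. Its mean correlation with the arrays of other groups was 0.907, against 0.929 for TW array 1, and the 2 TW arrays correlated at 0.907.

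In SeW, 6 of the 9 genes were higher and 3 lower than TW on average, with a median of 0.086, against -0.042 over all genes. Jund had the 1 call and the only unadjusted p under 0.05, where 1.91% of all genes were called in either direction, 1.11% were called lower and 19.6% had such a p, and with 9 genes 1 call was not tested against that share. Atf3 and Ier3 lay wholly above TW (22.1% of all genes) and Jund wholly below (29.1%), and Fosb alone passed a 2-fold difference between means (6.8% of all genes), resting on 1 dim TW array and 1 SeW array. As deposited, all 9 genes were higher in SeW with a median of 1.08, where the median over all genes was 0.92. Of the 9 genes, 5 were called on those unscaled values (Fos, Fosb, Junb, Atf3 and Ier3), where 4394 of all 9257 tested genes were called. The test among the 4 groups called none of the 9, against 0.616% of all genes, and Jund alone had an unadjusted p under 0.05 in it, against 17.6%.

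The treated groups were also compared with each other. In SeW against WR, 4 of 9 had an unadjusted p under 0.05 (Jun, Junb, Jund and Atf3), against 16.5% of all genes, and none was called, against 1.23%. Junb, Atf3 and Ier3 lay wholly above WR (24.2% of all genes) and Jun and Jund wholly below (30%), and Junb and Atf3 passed 2-fold (5.07%). The Jun value is that of its brightest probe set, and on the other 2 the SeW arrays were above the WR arrays. SeW against DSW1200 gave no call (2.72% of all genes) and 1 unadjusted p under 0.05, for Jund (20% of all genes). Junb and Ier3 lay wholly higher (24.3%) and Jun and Jund wholly lower (29.5%). Jun was again read from its brightest probe set, and on the other 2 the SeW arrays were above the DSW1200 arrays. DSW1200 against WR gave no call (0% of all genes) and no unadjusted p under 0.05 (5.84%). Fos and Jun lay wholly lower in DSW1200 (18%) and none wholly higher (17.5%), but on the other 2 Jun probe sets these arrays overlapped. These comparisons share their arrays with those against TW and are no independent evidence.

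The spread between the 2 arrays of a group was large for most of these genes. The pooled SD within groups was 1.11 log2 units for Fosb, 0.76 for Egr1, 0.71 for Dusp1, 0.62 for Atf3, 0.54 for Junb and 0.47 for Fos. These lie at percentiles 98.1, 94.1, 93.0, 90.0, 86.9 and 81.6 of the 9258 tested genes. Ier3 (0.23), Jun (0.22) and Jund (0.17) were at percentiles 43.1, 39.1 and 25. The median was 0.54 over the 9 genes, against 0.26 over all genes tested, and the brightest array exceeded the dimmest by a median ratio of 3.26, against 1.94. Jund, the gene that was called, had the smallest spread of the 9.

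**Figure D5:**
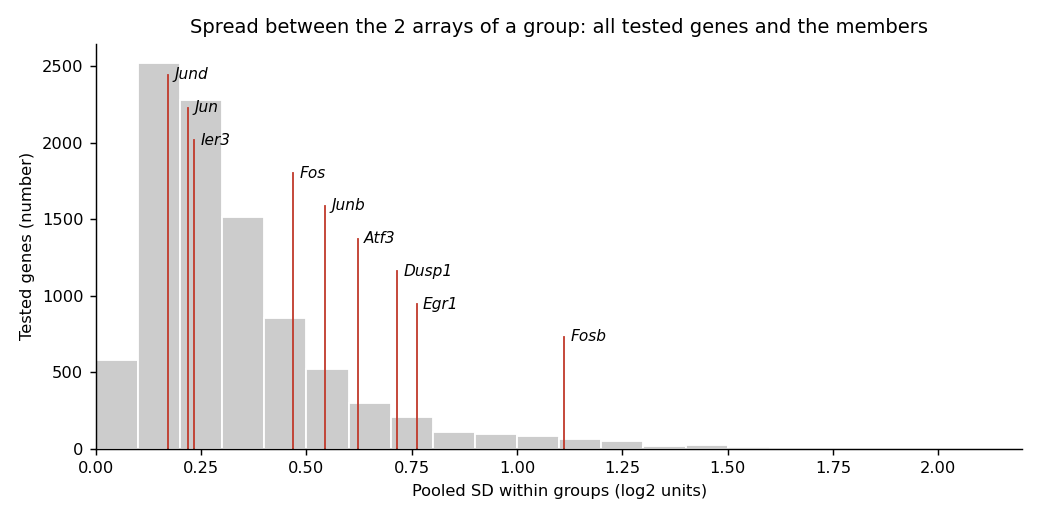
Pooled SD of log2 signal between the 2 arrays of a group (horizontal axis) for all 9258 tested genes (grey bars, number of genes) and for the 9 tested genes (red lines, whose heights carry no value). Jund, Jun and Ier3 lie at 0.17 to 0.23, near the bulk of the genes, and Fosb at 1.11 lies far to the right.

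The large ratios between arrays of a group did not sit in 1 group. Egr1 differed by a ratio of 1.53 between the WR arrays, 2.48 between the DSW1200 arrays and 1.09 between the SeW arrays, against 3.01 between the TW arrays. Dusp1 differed by 2.41 in WR, 2.43 in DSW1200 and 1.52 in SeW, against 1.61 in TW. Atf3 was most unequal in DSW1200 (2.82), Fos in SeW (2.06), Junb in WR (2.30) and Fosb in TW (5.51). Egr1, Dusp1 and Jund were brighter on the same array in every group, array 1 in WR and TW and array 2 in DSW1200 and SeW, an order that 6.76% of the tested genes shared. Their promoters are those printed above. The mean of the standardized log2 levels of the 9 genes was 0.35 and -0.32 in WR, then -0.33 and 0.11 in DSW1200 and -0.056 and 0.31 in SeW, against 0.070 and -0.13 in TW. On this mean the 2 WR arrays were the highest and the second lowest of the 8.

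Among the 9249 other tested genes, those whose log2 signal followed Egr1 most closely over the 8 arrays were Vps8 (Pearson r = 0.99), Klf2 (0.96), Entpd6, Brd1 and Galc (0.95 each). Klf2 encodes a zinc finger factor that is itself quickly induced. Fos was followed by Chac1 (r = 0.92), an enzyme that degrades glutathione and is induced by the unfolded protein response, and by Cxcr4, Plscr3, Rin3 and Tnmd (0.90 to 0.91). The mean of the 9 genes was followed by Tac3 (0.97), Bgn (0.95), Maff (0.94), a small Maf zipper protein that is an early gene too, Zbtb2 (0.91) and Msl1 (0.90). These are the highest of 9249 values over only 8 arrays, which share their groups, and are given as a description.

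The wider pathway was read through 8 lists with 120 genes, of which 85 were tested. Against TW, 47 of the 85 were higher and 38 lower in WR, 49 higher and 36 lower in DSW1200, and 43 higher and 42 lower in SeW. None was called in WR or DSW1200. An unadjusted p under 0.05 was found for 13 in WR (15.3%, where 9.7% of all genes had one) and for 10 in DSW1200 (11.8%, where 7.92% of all genes had one). SeW had 1 call (1.18% of the 85, where 1.91% of all genes were called) and 20 unadjusted p values under 0.05 (23.5%, where 19.6% of all genes had one). That call was Csrnp1, a nuclear protein of the early response known for its induction by AXIN1 in human cells. Csrnp1 had 130.1 and 119 in WR, then 65.0 and 91.6 in DSW1200 and 174 and 248 in SeW, against 78.3 and 69.3 in TW. It rose by 1.5 on the log2 scale in SeW (SE 0.24, adjusted p = 0.0206), and the SeW arrays were above all others. It was higher in SeW under every scaling, by 2.50 as deposited. The call was lost when either WR array, either SeW array or TW array 2 was left out (adjusted p from 0.0550 to 0.187, differences of 1.23 to 1.76), without the filter (0.0889), without the intensity trend (0.118), in a fit of 4 arrays alone (0.0541) and once the beta-actin ratio was a covariate (0.60, adjusted p = 0.776).

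The other early transcription factors, 19 of 21 tested, had 7 higher in WR, 9 in DSW1200 and 9 in SeW than in TW, with Csrnp1 the only call. Of the early feedback and RNA decay genes, 13 of 18 were higher in WR, 10 in DSW1200 and 10 in SeW, with no call. Gadd45a, which arrests growth after DNA damage, had 262 and 308 in SeW against 109 and 162 in TW (log2 difference 1.10, adjusted p = 0.0566). Spry2, a brake on receptor tyrosine kinases, had 69.3 and 56.6 in WR against 31.6 and 25.3 in TW (1.15, adjusted p = 0.373). It also lay above both TW arrays in DSW1200, at 60.2 and 46.7, and in SeW, at 47.9 and 32.3.

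Of 24 listed MAP kinases and activators, only 13 were found by name on the array, and these were tested. Among them, 12 of 13 were higher in WR than in TW on average, 9 in DSW1200 and 7 in SeW, and none was called. In WR, 5 lay wholly above TW (18.4% of all genes) and 1 wholly below (21.3%). Markers of several cell types moved with WR as well: 7 of 7 intraepithelial lymphocyte markers (summed signal 591 and 537 in WR against 479 and 365 in TW), 6 of 6 crypt proliferation markers (537 and 687 against 583 and 424 in TW), 9 of 10 fibroblast and smooth muscle markers (468 and 361 against 372 and 201 in TW) and 3 of 3 Paneth markers (1584 and 1889.9 against 832 and 922 in TW) were higher on average, with Defa24 the only call. All 4 tested pancreatic acinar markers were higher too (105 and 544 in WR against 157 and 40.4 in TW). Of the others, 5 of 7 myeloid, 3 of 4 endothelial and blood and 3 of 7 goblet markers were higher. Lower on average were 6 of 7 enteroendocrine markers (1264 and 1000 against 1339 and 1450 in TW) and 7 of 10 enterocyte markers (39951 and 37930 against 42720 and 43842 in TW). The part of these markers in the kinase counts was not tested. Rps6ka5, which encodes the kinase MSK1 that phosphorylates CREB and histone H3 at early genes, had 55.8 and 50.4 in WR, then 53.3 and 55.4 in DSW1200 and 63.2 and 65.3 in SeW, against 38.8 and 27.6 in TW. Its arrays lay above TW in all other groups, with differences of 0.70, 0.73 and 0.97 (adjusted p = 0.453, 0.617 and 0.0592). Of the other MAP kinase phosphatases, 3 of 5 were higher in WR, 3 in DSW1200 and 4 in SeW, with no call. Dusp6, the ERK phosphatase, had 1129 and 650.5 in DSW1200 against 480.1 and 393 in TW (0.98, adjusted p = 0.617). Of the serum response factors and partners, 4 of 5 were higher in WR, 4 in DSW1200 and none in SeW, with no call.

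The other zipper partners had 5 of 11 higher in WR, 7 in DSW1200 and 8 in SeW than in TW, with no call. Maf, a large Maf protein, had 1234 and 886 in WR, then 965 and 1110.4 in DSW1200 and 1069.9 and 1005 in SeW, against 708 and 347 in TW, with adjusted p from 0.0868 to 0.617. The early secreted signals had 2 of 6 higher in WR, 4 in DSW1200 and none in SeW, with no call, and Il1b, the inflammatory cytokine, had 15.3 and 20.5 in SeW against 48.5 and 28.3 in TW (-1.07, adjusted p = 0.112). Myc partners had 1 of 8 higher in WR, 3 in DSW1200 and 5 in SeW, with no call. Mnt, a repressor that competes with Myc for Max, had 63.0 and 58.4 in SeW against 137 and 111 in TW (-1.02, adjusted p = 0.0535).

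SeW against DSW1200 had 5 calls among the 85 genes (5.88%, where 2.72% of all genes were called), and these genes were chosen here after their values were seen. Csrnp1 (1.43, adjusted p = 0.0215), Gadd45a (1.59, adjusted p = 0.0191) and Zfp36 (1.42, adjusted p = 0.0442), which encodes the decay factor of AU-rich mRNAs that include early genes, were higher in SeW. Crem (-1.62, adjusted p = 0.0471), a cyclic AMP responsive zipper factor, and Mnt (-1.64, adjusted p = 0.0126) were lower. Zfp36 had 226 and 294 in SeW against 82.3 and 112 in DSW1200, and Crem had 22.8 and 20.6 in SeW against 97 and 45.9 in DSW1200. Every one of the 5 calls was lost when either SeW array was left out, with adjusted p from 0.0518 to 0.293. With the beta-actin ratio as a covariate, no call remained among the 5 (adjusted p from 0.954 to 0.998), and 0 of all 9258 genes were called. The ratio was lowest in SeW and highest in DSW1200, without overlap, so this fit cannot separate it from the water. The differences were then 1.54 for Gadd45a (SE 0.94), 0.11 for Csrnp1 (SE 0.75) and 0.11 for Zfp36 (SE 1.05). They were -0.045 for Crem (SE 1.25) and -0.84 for Mnt. As deposited the differences of Crem and Mnt were -0.72 (adjusted p = 0.135) and -0.75 (adjusted p = 0.0659), which did not pass, and Crem was also lost with median centring (adjusted p = 0.0774) and with the replicate block (adjusted p = 0.0736).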

How the data were processed

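RNA of loosened epithelial cells was measured on 8 arrays. The authors deposited linear MAS5 signal intensities, 1 per probe set, and the version and scaling target are not given in the sources used here. Their methods state quantile normalization, but the deposited intensities have unequal medians, so they were quantile normalized here over all 31099 probe sets. Values under 1 were set to 1 (0.0810% of tested values) and log2 was taken. Names came from the platform's annotation, for 20764 probe sets by Entrez number, and probe sets with several symbols (436) were left out. The probe set of highest mean log2 signal stood for its gene.

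The linear model was fitted in limma 3.58.1 (R 4.3.3) to the 8 arrays together, with a term for group, an intensity trend and 4 residual degrees of freedom before moderation. P-values were adjusted over 9258 genes (Benjamini-Hochberg, 0.05). The script was tested on simulated data. The number of arrays limits the precision. Alternatives covered scaling, filter, offset, probe set choice, trend, arrays in the fit, replicate block, the beta-actin ratio, the 2-fold criterion and leaving out each array.

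The genes and lists were chosen with earlier results of these data known. Named were all 10 genes, any list gene called against TW and otherwise genes among the 4 smallest p-values of each list, and the 5 most similar genes to Fos, Egr1 and the mean.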

Additional observations from a re-analysis of the deposited data

How the results depend on the processing

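In SeW against TW the count of called genes was 1 (Jund) of 9 and stayed at 1 with the stricter filter, the offset of 32 and every probe set tested. It was 0 without a filter (adjusted p of Jund 0.112), without the intensity trend (0.158), with median centring, with probe sets averaged per gene, with the beta-actin ratio as a covariate and in a fit of the 4 arrays alone (0.0818). It was 5 on unscaled deposited values and between 0 and 1 when 1 array was left out. As deposited, 3 genes were called in SeW against DSW1200 (Junb, Ier3 and Dusp1), where 3737 of all 9257 tested genes were called. SeW against WR then had 2 (Junb and Atf3), where 972 of 9257 genes were called. The test among all 4 groups had 3 (Junb, Atf3 and Ier3), where 2765 of 9257 genes were called. With only the 4 arrays compared, SeW against WR gave 2 (Jund and Atf3), where 446 of 9258 genes were called. By the 2-fold criterion SeW against WR gave 2, where 469 of 9258 genes passed. WR against TW, DSW1200 against TW and DSW1200 against WR gave no call of these genes under any alternative run. Over all genes, SeW against TW gave 177 calls, 4394 as deposited, 42 after median centring, 12 without the filter, 265 and 209 with the stricter filter and the offset, 64 with mean probe sets, 1 with no trend, 114 with the block, 0 with the beta-actin covariate, 26 with only the 4 arrays, and 1 to 528 when 1 array was left out. The cause was not tested.

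The replicate numbers did not pair the arrays: deviations of same-numbered arrays correlated between -0.065 and 0.040 over genes. With the replicate number as a block the count in SeW against TW was 0, with Jund at an adjusted p of 0.0623.

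Several differences changed sign, among them the call on Jund in SeW. As deposited these were Jund (0.15) and Atf3 (0.062) in WR, and Jund (0.11), Jun (0.63) and Dusp1 (0.80) in SeW. On those unscaled values the median tested gene was itself higher than in TW, by 0.38 in WR and 0.92 in SeW, above each of these differences. With the mean of probe sets they were Fos in WR (-0.56), DSW1200 (-0.75) and SeW (-0.33), and Jun (0.46) and Dusp1 (0.38) in SeW. For Fos and Dusp1 that mean took in a dim probe set, with a mean signal of 1.57 for Fos and 4.82 for Dusp1, under the level for testing. Median centring turned Egr1 in WR (-0.059) and Jun in DSW1200 (-0.0099), and the offset turned Fosb in DSW1200 (-0.024). The beta-actin covariate turned Fosb (-0.25), Ier3 (-0.28) and Dusp1 (0.23) in DSW1200, and Fos (-0.19), Junb (-0.29), Egr1 (-0.48) and Atf3 (-1.14) in SeW. Leaving out 1 array gave in WR a range of -0.50 to 1.96 for Fosb, -0.70 to 0.90 for Egr1, -0.72 to 0.11 for Atf3 and -0.14 to 0.44 for Ier3. In DSW1200 it gave -0.14 to 0.47 for Fos, -0.99 to 1.48 for Fosb, -0.17 to 0.30 for Jun, -0.54 to 1.05 for Egr1, -0.18 to 1.32 for Atf3 and -0.26 to 0.33 for Ier3, and in SeW -0.47 to 0.58 for Fos, -0.063 to 2.39 for Fosb, -0.71 to 0.89 for Egr1 and -0.52 to 0.17 for Dusp1. In all of these an arm left with 1 array was assumed to vary like the other groups. The dim Fosb and Myc probe sets limit what their levels can show.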
